A study of Mus musculus with 12 samples.

Results

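The receptors for the constant part of IgG, their adaptors and the kinases that read them were followed as 9 genes: the receptors Fcgr1, Fcgr2b, Fcgr3 and Fcgr4, the adaptors Fcer1g and Tyrobp, and the kinases Syk, Fgr and Lyn. They were taken by symbol from a deposited matrix of 54104 Ensembl genes, and all 9 were present and passed the filter on low values that kept 13610 genes. The study set out to compare gene expression in PMN-MDSCs and M-MDSCs, the granulocytic and monocytic kinds of myeloid-derived suppressor cell, taken from the spleen and tumor of mice. RNA-seq libraries fell into 4 groups of 3: Ly6C tumor, Ly6C spleen, Ly6G tumor and Ly6G spleen, named for a surface antigen and a tissue. The labels give no strain, age, tumor model, treatment, sorting gate or number of animals. Nothing in them says that the 3 libraries of a group came from separate animals, so the p-values measure the spread between libraries, which may be technical.

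Activating Fc gamma receptors bind IgG on antibody-coated targets. In the mouse, Fcgr1, Fcgr3 and Fcgr4 signal through the FcR gamma chain encoded by Fcer1g, a short adaptor with an ITAM, a tyrosine motif that Src-family kinases such as LYN and FGR phosphorylate and to which the kinase SYK then binds. Tyrobp encodes DAP12, a like adaptor for receptors such as the TREM proteins, and Fcgr2b is the inhibitory receptor, whose ITIM recruits the phosphatase SHIP1. In neutrophils, monocytes and macrophages the balance of these receptors sets the response to immune complexes, including phagocytosis and degranulation.

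Of the 9 genes, Fcgr2b, Fcgr4, Fcgr3 and Fcer1g lie on chromosome 1 of the GRCm38 build, at 170958617 to 170976547, 171018920 to 171029761, 171051174 to 171064935 and 171229572 to 171234365. Fcgr1 lies on chromosome 3 from 96282909 to 96293969. Lyn, from 3678115 to 3813122, and Fgr, from 132974095 to 133001910, lie on chromosome 4, Tyrobp on chromosome 7 from 30413760 to 30417585, and Syk on chromosome 13 from 52583173 to 52648792. Of the 50-base stretches of annotated Fcgr3 transcripts, 9.58% also occur in Fcgr2b transcripts, and of those of Fcgr2b 6.95% occur in transcripts of another gene, 2.92% in those of Fcgr3. Of those of Lyn, 18.3% occur in transcripts of another gene, 13.4% in those of the predicted gene Gm11787. The other 6 genes shared none with another gene, so the values of Fcgr2b, Fcgr3 and Lyn are the uncertain ones where fragments could be assigned to either gene.

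Promoter windows from RefSeq (GRCm38.p6), running from 250 bases before to 50 bases after a transcript start, were held for 7 of the 9 genes as 9 windows. They were searched on both strands for GAGGAAGT, a form of the ETS motif bound by PU.1, for TTCNNNGAA, the STAT motif, and for TGTGGTT, the core RUNX motif. Fcgr1 and Fcgr4 are shown because they were the 2 members that passed the test between Ly6C and Ly6G spleen, in opposite directions, and the members whose windows held a match. Capitals mark the match, a STAT motif 109 bases before the start in Fcgr1 and an ETS motif 24 bases before the start in Fcgr4, where it reads ACTTCCTC on the strand shown.
Fcgr1, chr3:96293920-96294219, minus strand: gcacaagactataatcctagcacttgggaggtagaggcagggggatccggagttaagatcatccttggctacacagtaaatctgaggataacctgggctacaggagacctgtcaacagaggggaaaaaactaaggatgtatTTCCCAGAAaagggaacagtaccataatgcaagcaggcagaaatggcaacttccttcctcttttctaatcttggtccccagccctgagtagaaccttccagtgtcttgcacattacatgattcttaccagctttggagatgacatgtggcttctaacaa
Fcgr4, chr1:171018676-171018975, plus strand: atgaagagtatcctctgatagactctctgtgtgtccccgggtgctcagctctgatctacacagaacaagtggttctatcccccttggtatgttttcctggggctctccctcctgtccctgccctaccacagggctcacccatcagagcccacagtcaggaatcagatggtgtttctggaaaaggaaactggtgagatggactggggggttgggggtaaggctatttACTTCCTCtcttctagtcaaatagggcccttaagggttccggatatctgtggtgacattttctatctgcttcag
Of 32544 promoter windows in the table, 3.11% held GAGGAAGT, 8.33% held TTCNNNGAA and 5.29% held TGTGGTT. No member window held TGTGGTT. A match is a run of letters and no measure of binding.

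All libraries resembled the others of their group, with Pearson's r from 0.970 to 0.986 across genes. FPKM summed to between 331681 and 449309 per library, and between 10379 and 12337 genes reached 1 FPKM. Ly6g, the antigen of the Ly6G label, stood at 12.97 ± 1.03 FPKM in Ly6C tumor and 166 ± 40.0 FPKM in Ly6C spleen, and at 39.1 ± 13.02 FPKM in Ly6G tumor and 651 ± 63.6 FPKM in Ly6G spleen (SD, n = 3 each). Ly6c2, which encodes a Ly6C antigen, stood at 7.05 ± 0.976 FPKM in Ly6C tumor and 6.69 ± 1.27 FPKM in Ly6G tumor, and at 247 ± 24.8 FPKM in Ly6C spleen and 214 ± 38.6 FPKM in Ly6G spleen. It passed the test between the labels in neither tissue (limma adjusted p = 0.818 in tumor and 0.380 in spleen). The summed FPKM of 20 pan-leukocyte genes was 168 to 338 in Ly6C tumor against 3695 to 4249 in Ly6C spleen, and 428 to 718 in Ly6G tumor against 4719 to 4818 in Ly6G spleen. Mitochondrial transcripts took 3.07% to 7.84% of FPKM in Ly6C tumor against 1.68% to 2.50% in Ly6C spleen, and 5.41% to 11.9% in Ly6G tumor against 2.48% to 2.87% in Ly6G spleen. S100a8 and S100a9 together took 0.330% to 0.598% in Ly6C tumor against 14.6% to 22.8% in Ly6C spleen, and 1.09% to 2.18% in Ly6G tumor against 23.3% to 30.5% in Ly6G spleen. The list of 8 epithelial markers summed to 753 to 1020 FPKM in Ly6C tumor against 0.347 to 0.557 FPKM in Ly6C spleen, and to 446 to 754 FPKM in Ly6G tumor against 0.917 to 1.23 FPKM in Ly6G spleen. Of these 8 genes, Krt8 and Krt18 alone passed the filter on low values, and Epcam was at 0 in all Ly6C tumor libraries. Fibroblast markers summed to 193 to 365 FPKM in Ly6C tumor against 1.89 to 2.40 FPKM in Ly6C spleen, and to 137 to 329 FPKM in Ly6G tumor against 4.14 to 6.44 FPKM in Ly6G spleen. Endothelial markers summed to 31.4 to 41.6 FPKM in Ly6C tumor against 4.13 to 6.38 FPKM in Ly6C spleen, and to 32.3 to 46.4 FPKM in Ly6G tumor against 4.999 to 7.54 FPKM in Ly6G spleen. The part of these differences in the tumor changes below was not tested, and fewer cells of a type and less RNA per cell cannot be told apart in such bulk libraries.

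Fcer1g and Tyrobp, the 2 ITAM adaptors, were the most abundant of the 9 genes in every group, and both were lower in tumor than in spleen under both labels. Fcer1g stood at 82.8, 36.4 and 88.0 FPKM in Ly6C tumor and at 610, 573 and 512 FPKM in Ly6C spleen. In Ly6G tumor it stood at 107, 168 and 193 FPKM, and in Ly6G spleen at 934, 816 and 1169 FPKM. The tumor and spleen ranges did not overlap under either label, and replicate 2 of Ly6C tumor was the lowest of its group for every one of the 9 genes. Tyrobp stood at 163, 76.5 and 161 FPKM in Ly6C tumor and at 964, 930 and 848 FPKM in Ly6C spleen. In Ly6G tumor Tyrobp stood at 228, 353 and 385 FPKM, and in Ly6G spleen at 1401, 1363 and 1422 FPKM. Both adaptors thus had the same order, Ly6G spleen, Ly6C spleen, Ly6G tumor and then Ly6C tumor, with no overlap between neighbours.

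In limma on log2(FPKM + 1), with Benjamini-Hochberg adjustment over the 13610 genes, Fcer1g fell by 3.11 ± 0.32 (SE) in Ly6C tumor relative to Ly6C spleen (adjusted p = 2.57e-06) and by 2.66 ± 0.32 in Ly6G tumor relative to Ly6G spleen (adjusted p = 1.06e-05). Tyrobp fell by 2.84 ± 0.28 under Ly6C (limma adjusted p = 1.81e-06) and by 2.15 ± 0.28 under Ly6G (adjusted p = 2.16e-05). These changes are on the log2(FPKM + 1) scale, as are all those below. Scaling each library to its 20 pan-leukocyte genes instead turned the direction for both adaptors, to 0.59 for Fcer1g and 0.87 for Tyrobp under Ly6C and to 0.08 and 0.59 under Ly6G. That scaling also moved the median of all genes, to 3.12 under Ly6C and 2.28 under Ly6G, where the unscaled medians were 0.27 and 0.43.

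**Figure D1:**
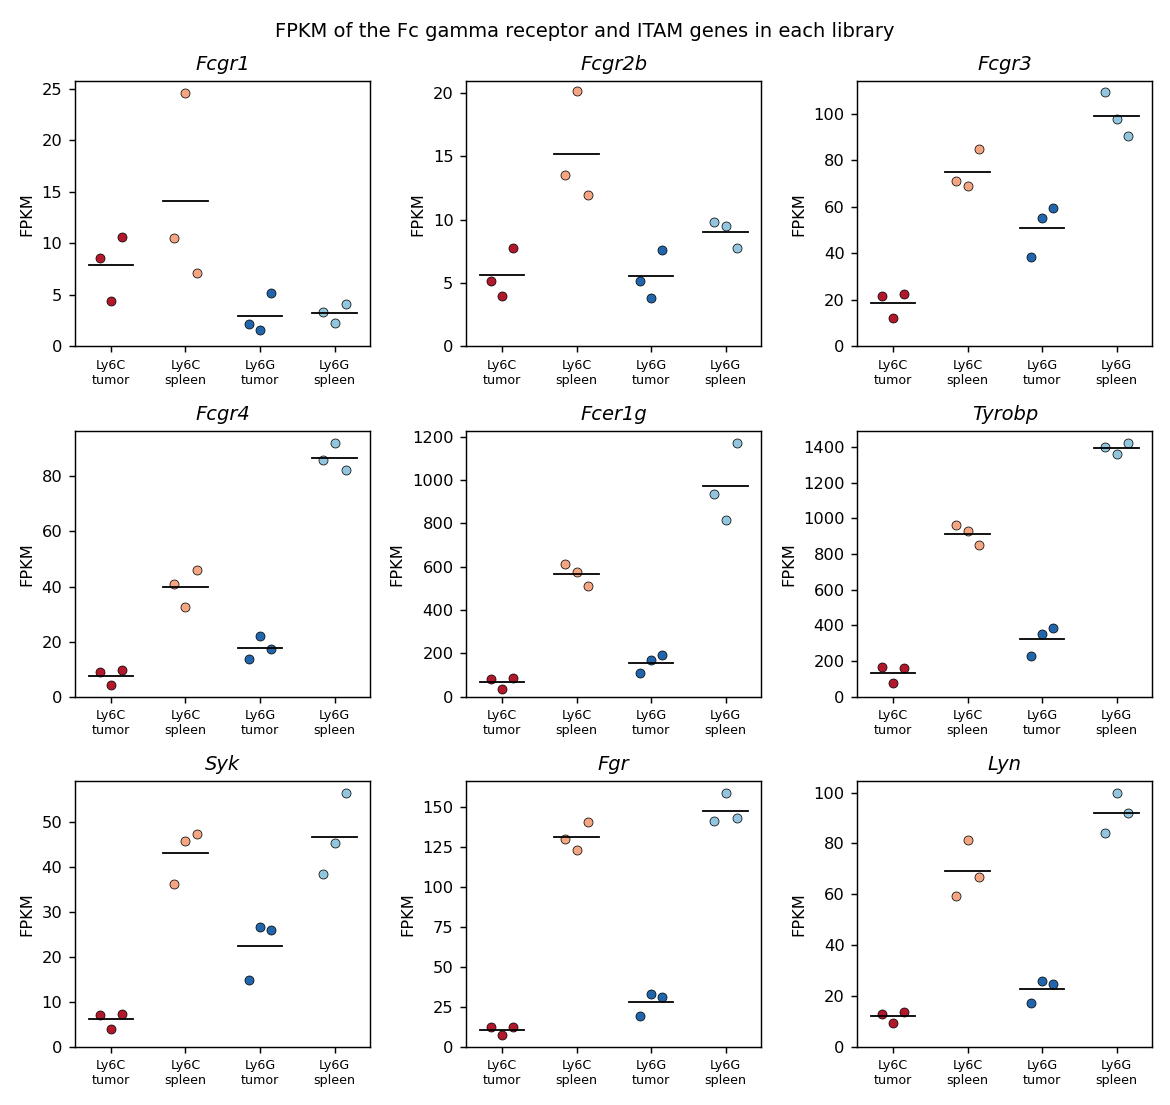
FPKM of the 9 genes on linear axes from 0, 1 panel per gene, with 1 point per library and a bar at the mean of each group of 3. Fcer1g and Tyrobp sit between 36.4 and 1422 FPKM with no overlap between tumor and spleen, while the Fcgr1 points of tumor and spleen overlap under both labels.

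Tumor minus spleen changes of the 4 receptors ranged from -0.67 to -2.29 under Ly6C and from -0.17 to -2.26 under Ly6G. Fcgr3, the low-affinity activating receptor found on most myeloid cells, stood at 21.8, 12.04 and 22.7 FPKM in Ly6C tumor and at 70.9, 68.7 and 84.7 FPKM in Ly6C spleen. It stood at 38.3, 55.0 and 59.3 FPKM in Ly6G tumor and at 109, 97.7 and 90.6 FPKM in Ly6G spleen. The 4 groups did not overlap, and Fcgr3 fell by 1.98 ± 0.23 (SE) under Ly6C (limma adjusted p = 7.85e-06) and by 0.97 ± 0.23 under Ly6G (adjusted p = 0.00218).

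Fcgr4, an activating receptor for IgG2 subclasses and IgE in the mouse, stood at 8.95, 4.30 and 9.69 FPKM in Ly6C tumor and at 40.9, 32.5 and 46.2 FPKM in Ly6C spleen. It stood at 13.6, 22.1 and 17.3 FPKM in Ly6G tumor and at 86.0, 92.1 and 82.4 FPKM in Ly6G spleen. Again no neighbouring groups overlapped. Fcgr4 fell by 2.29 ± 0.25 under Ly6C (limma adjusted p = 5.23e-06) and by 2.26 ± 0.25 under Ly6G (adjusted p = 6.35e-06), the most of the receptors under both labels.

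Fcgr1, the high-affinity IgG receptor of monocytes and macrophages, was the member without a tissue change past the threshold. It stood at 8.54, 4.38 and 10.6 FPKM in Ly6C tumor and at 10.51, 24.6 and 7.12 FPKM in Ly6C spleen. In Ly6G tumor Fcgr1 stood at 2.20, 1.64 and 5.15 FPKM, and in Ly6G spleen at 3.32, 2.32 and 4.13 FPKM. Tumor and spleen overlapped under both labels, and every Ly6C spleen library was above every Ly6G spleen library. The change was -0.67 ± 0.44 under Ly6C (limma adjusted p = 0.180) and -0.17 ± 0.44 under Ly6G (adjusted p = 0.740). Replicate 2 of Ly6C spleen, with 24.6 FPKM of Fcgr1, also had the highest summed macrophage markers of its group, 466 FPKM in a range of 199 to 466. Ly6G spleen libraries had 327 to 743 FPKM of those markers beside 2.32 to 4.13 FPKM of Fcgr1. The part of macrophages in the Fcgr1 values was not tested.

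Fcgr2b, the inhibitory receptor, stood at 5.19, 4.002 and 7.76 FPKM in Ly6C tumor and at 13.5, 20.1 and 11.97 FPKM in Ly6C spleen. In Ly6G tumor it stood at 5.19, 3.82 and 7.62 FPKM, and in Ly6G spleen at 9.80, 9.52 and 7.74 FPKM. The Ly6C spleen libraries were the highest, and the tumor groups of both labels covered nearly the same range. Fcgr2b fell by 1.29 ± 0.26 under Ly6C (limma adjusted p = 0.000635) and by 0.65 ± 0.26 under Ly6G (adjusted p = 0.0364). The Ly6G call was lost without the filter on low values (adjusted p = 0.0738) and with FPKM rescaled to equal sums (adjusted p = 0.212). It was also lost without replicate 1 or 2 of Ly6G spleen or of Ly6G tumor, with adjusted p from 0.0821 to 0.151. B cells also carry Fcgr2b, and B cell markers summed to 5.37 to 8.76 FPKM in Ly6C tumor against 258 to 400 FPKM in Ly6C spleen, and to 5.35 to 8.60 FPKM in Ly6G tumor against 760 to 1323 FPKM in Ly6G spleen. Their part in the tissue change of Fcgr2b was not tested.

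All 3 kinases were lower in tumor than in spleen under both labels, on FPKM as deposited. Fgr, a Src-family kinase largely of myeloid cells, stood at 12.2, 7.42 and 12.4 FPKM in Ly6C tumor and at 130, 123 and 141 FPKM in Ly6C spleen. It stood at 19.2, 33.2 and 31.3 FPKM in Ly6G tumor and at 142, 159 and 143 FPKM in Ly6G spleen. Fgr fell by 3.53 ± 0.22 under Ly6C, the most among the 9 genes (limma adjusted p = 3.37e-08), and under Ly6G it fell by 2.40 ± 0.22 (adjusted p = 9.67e-07).

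Lyn, a Src-family kinase that acts on ITAM and ITIM receptors alike, stood at 12.9, 9.33 and 13.5 FPKM in Ly6C tumor and at 59.3, 81.3 and 66.7 FPKM in Ly6C spleen. In Ly6G tumor Lyn stood at 17.3, 26.1 and 24.8 FPKM, and in Ly6G spleen at 84.0, 99.9 and 91.8 FPKM. All 4 groups were apart, and Lyn fell by 2.44 ± 0.18 under Ly6C (limma adjusted p = 1.97e-07) and 1.99 ± 0.18 under Ly6G (adjusted p = 1.29e-06).

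Syk stood at 7.15, 4.05 and 7.36 FPKM in Ly6C tumor and at 36.3, 45.8 and 47.4 FPKM in Ly6C spleen. Ly6G tumor libraries had 14.9, 26.6 and 26.0 FPKM of Syk, and Ly6G spleen libraries 38.4, 45.4 and 56.5 FPKM. The spleen groups overlapped, while the tumor groups were apart, with Ly6C tumor the lowest. Syk fell by 2.65 ± 0.25 under Ly6C (limma adjusted p = 1.48e-06) and by 1.05 ± 0.25 under Ly6G (adjusted p = 0.00247).

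Between tissues, 8 of the 9 genes were lower in Ly6C tumor than in Ly6C spleen and none was higher, where 76.7% of all genes tested passed, 46.2% as higher and 30.5% as lower. The median change of the 9 was -2.44, beside 0.27 over all genes and -3.61 over the 20 pan-leukocyte genes. In Ly6G tumor relative to Ly6G spleen, 8 of 9 were lower as well, where 76.2% of genes passed, 51.5% as higher and 24.7% as lower. The median change was -1.99, beside 0.43 over all genes and -2.55 over the pan-leukocyte genes. The ranges of tumor and spleen did not overlap for 8 of the 9 genes in each comparison, all with tumor below spleen, a pattern that 31.5% of all genes showed under Ly6C and 26% under Ly6G. Scaled to the pan-leukocyte genes, all 9 changes turned positive under both labels, and 7 passed as higher under Ly6C and 5 under Ly6G. On that scale 90.6% and 89.1% of all genes passed as higher, so the members' count says nothing particular about them. Among the members, Fgr (0.07 under Ly6C and 0.29 under Ly6G) and Fcer1g (0.59 and 0.08) moved least beside the pan-leukocyte genes, and Fcgr1 (2.69 and 1.73), Fcgr2b (2.07 and 1.68) and Fcgr3 (1.65 and 1.73) moved most.

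**Figure D2:**
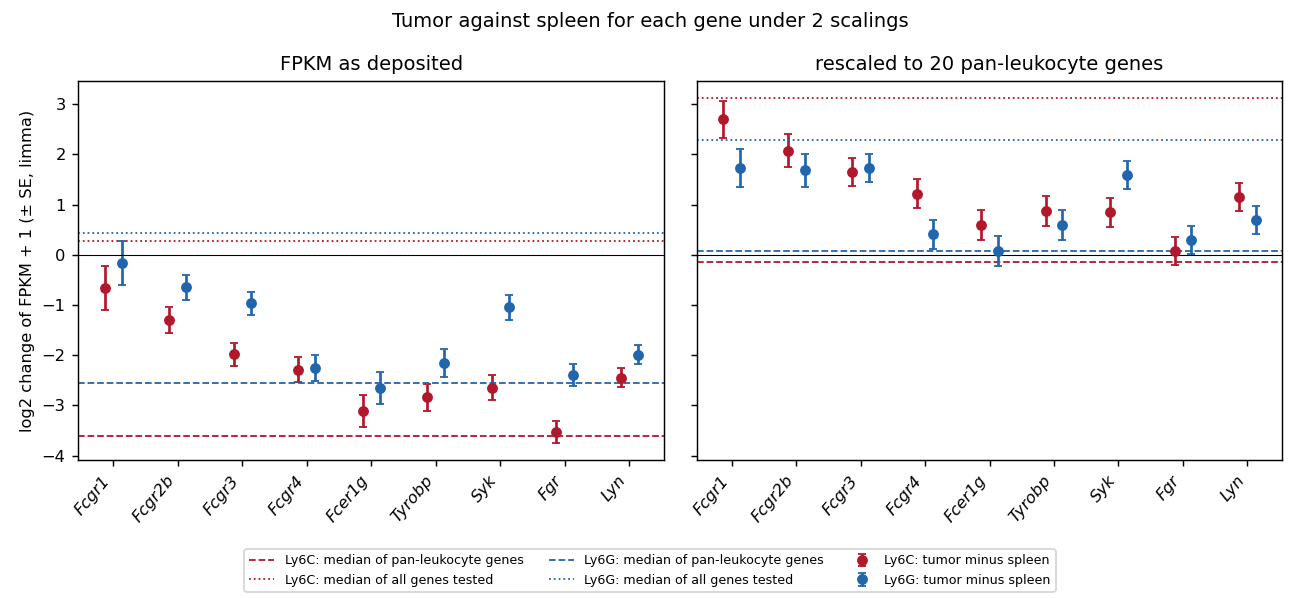
Log2 change of FPKM + 1, tumor minus spleen, of the 9 genes in Ly6C and Ly6G libraries, with bars of 1 SE, from FPKM as deposited (left) and rescaled to 20 pan-leukocyte genes (right). All points are below 0 on the left and above 0 on the right, where the medians of all genes (dotted) move to 3.12 and 2.28, and dashed lines mark the pan-leukocyte medians.

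Ratios of 2 members within a library do not depend on how the library was scaled. They were tested by exact permutation within the other factor, two-sided, with Benjamini-Hochberg adjustment over 8 tests. The smallest p that the 400 arrangements allow is 0.005. The ratio of Fcgr4 to Fcgr3 was 0.411, 0.357 and 0.426 in Ly6C tumor and 0.576, 0.473 and 0.545 in Ly6C spleen. It was 0.356, 0.402 and 0.291 in Ly6G tumor and 0.788, 0.942 and 0.910 in Ly6G spleen. Fcgr4 thus made up a smaller part relative to Fcgr3 in all tumor libraries of a label than in any of its spleen libraries. The mean log2 difference between tumor and spleen was -0.88 (exact permutation p = 0.005, adjusted p = 0.01), made of -0.42 under Ly6C and -1.34 under Ly6G, whose difference was not tested.

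The ratio of Fgr to Lyn was 0.942, 0.796 and 0.919 in Ly6C tumor and 2.19, 1.52 and 2.11 in Ly6C spleen. It was 1.11, 1.28 and 1.26 in Ly6G tumor and 1.69, 1.59 and 1.56 in Ly6G spleen. Fgr was above Lyn in all libraries except the 3 of Ly6C tumor, and the log2 difference between tumor and spleen was -0.76 (exact permutation p = 0.005, adjusted p = 0.01). The ratio of Tyrobp to Fcer1g moved the other way and by less. It was 1.97, 2.10 and 1.83 in Ly6C tumor and 1.58, 1.62 and 1.66 in Ly6C spleen, and 2.13, 2.10 and 1.99 in Ly6G tumor and 1.5, 1.67 and 1.22 in Ly6G spleen. Tumor libraries were higher by 0.40 on the log2 scale (exact permutation p = 0.005, adjusted p = 0.01).

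The ratio of the activating Fcgr3 to the inhibitory Fcgr2b differed between the labels and missed the threshold between the tissues. It was 4.20, 3.01 and 2.93 in Ly6C tumor and 7.39, 14.4 and 7.79 in Ly6G tumor. In spleen it was 5.25, 3.41 and 7.08 under Ly6C and 11.1, 10.3 and 11.7 under Ly6G. The labels did not overlap in either tissue, with a log2 difference of -1.31 between Ly6C and Ly6G (exact permutation p = 0.005, adjusted p = 0.01). Between tumor and spleen the difference was -0.41 (exact permutation p = 0.11, adjusted p = 0.176), and without replicate 2 of Ly6G tumor it was -0.57 (adjusted p = 0.032). For the other 3 ratios the difference between Ly6C and Ly6G was 0.04 for Tyrobp to Fcer1g, -0.10 for Fgr to Lyn and -0.27 for Fcgr4 to Fcgr3, with exact permutation adjusted p = 0.730, 0.554 and 0.233.

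**Figure D3:**
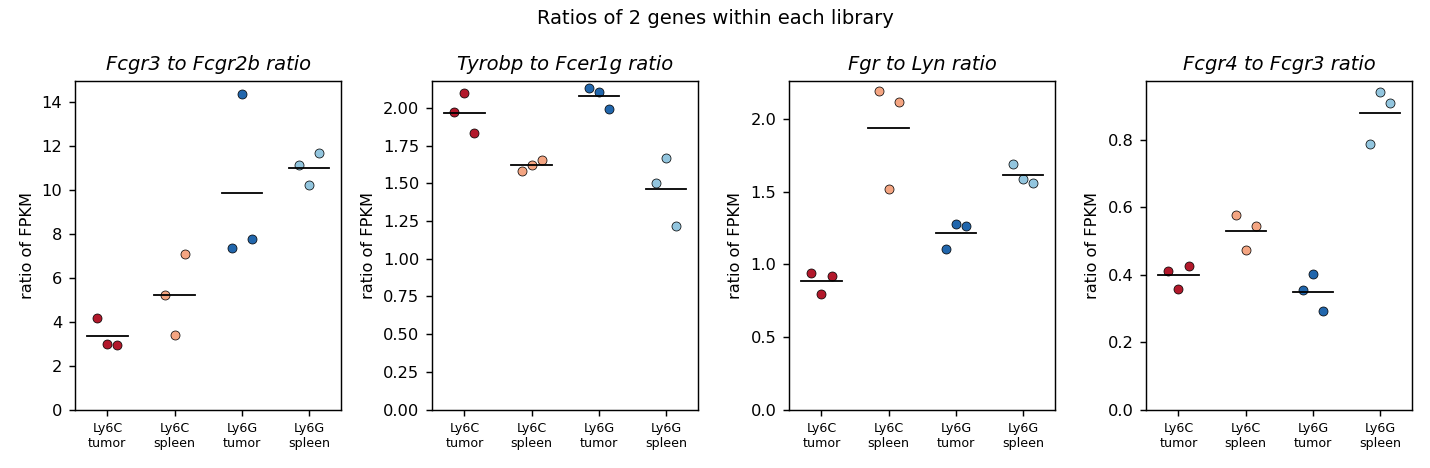
Within-library ratios of FPKM for 4 pairs of members on linear axes from 0, with 1 point per library and a bar at the group mean. The Fcgr4 to Fcgr3 and Fgr to Lyn ratios are lower in tumor than in spleen under both labels, the Tyrobp to Fcer1g ratio is higher in tumor, and the Fcgr3 to Fcgr2b ratio is lower in Ly6C than in Ly6G libraries.

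The make-up of the receptor transcripts was described without a test. The 4 receptors summed to 40.0 ± 13.6 FPKM in Ly6C tumor and 144 ± 7.29 FPKM in Ly6C spleen, and to 77.1 ± 15.7 FPKM in Ly6G tumor and 198 ± 12.04 FPKM in Ly6G spleen (SD, n = 3 each). Fcgr3 took the largest share in every group, 47.5% ± 2.37 in Ly6C tumor and 51.9% ± 4.71 in Ly6C spleen, and 65.8% ± 1.12 in Ly6G tumor and 49.95% ± 2.14 in Ly6G spleen. Fcgr4 took 18.9% ± 1.39 in Ly6C tumor and 27.7% ± 4.73 in Ly6C spleen, and 23.0% ± 3.72 in Ly6G tumor and 43.9% ± 2.27 in Ly6G spleen. The shares of Fcgr1 and Fcgr2b were largest in Ly6C tumor, 19.3% ± 1.61 and 14.4% ± 2.39, and smallest in Ly6G spleen, 1.66% ± 0.546 and 4.54% ± 0.307. The 3 activating receptors together stood at 6.10 ± 1.29 times the FPKM of Fcgr2b in Ly6C tumor and 8.94 ± 2.64 times in Ly6C spleen, and at 13.9 ± 5.80 times in Ly6G tumor and 21.1 ± 1.56 times in Ly6G spleen. Fcer1g stood at 1.97 ± 0.187 FPKM per FPKM of the 3 activating receptors in Ly6C tumor and 4.42 ± 0.651 in Ly6C spleen. The values were 2.16 ± 0.198 in Ly6G tumor and 5.19 ± 1.24 in Ly6G spleen. Fcer1g thus exceeded the sum of these 3 receptors in every group, and by less in tumor. Other receptors listed as using Fcer1g are not in that sum. They came to 34.4 to 60.1 FPKM in Ly6C tumor and 75.2 to 102 FPKM in Ly6C spleen, and to 103 to 163 FPKM in Ly6G tumor and 157 to 186 FPKM in Ly6G spleen.

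**Figure D4:**
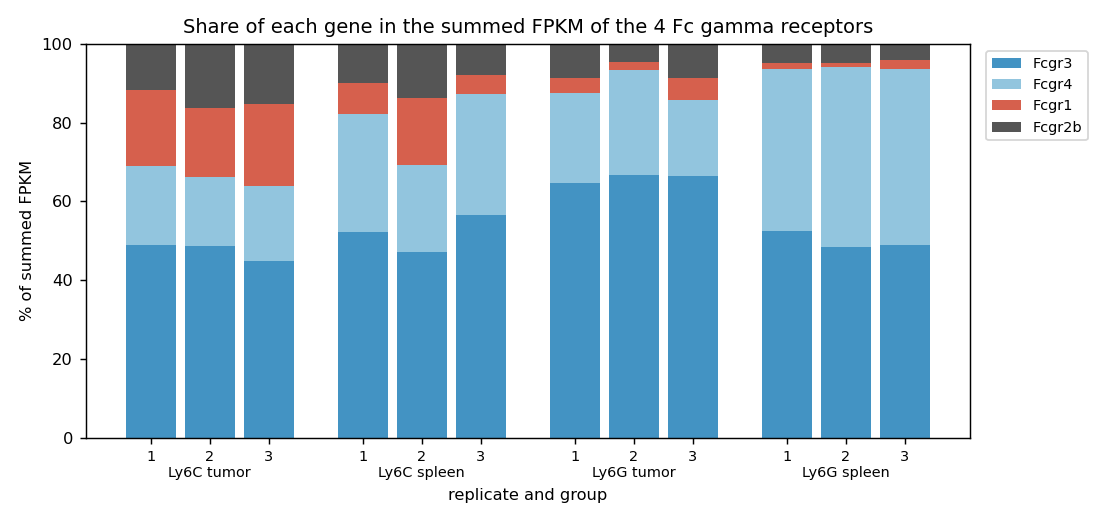
Share of each receptor in the summed FPKM of Fcgr1, Fcgr2b, Fcgr3 and Fcgr4, in percent, as a stacked bar for each of the 12 libraries. Fcgr3 averages 47.5% in Ly6C tumor and 65.8% in Ly6G tumor, and the Fcgr4 share is largest in the Ly6G spleen libraries, with a mean of 43.9%.

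Within the spleen, Ly6C and Ly6G libraries differed past the threshold in 2 of the 9 genes, Fcgr1 higher and Fcgr4 lower in Ly6C, where 30.6% of all genes passed, 22.1% as higher and 8.59% as lower. Fcgr1 was higher in Ly6C spleen by 1.68 ± 0.44 (limma adjusted p = 0.0133), and by 1.21 ± 0.39 without replicate 2 of that group (adjusted p = 0.0459). Fcgr4 fell by 1.12 ± 0.25 in Ly6C spleen relative to Ly6G spleen (adjusted p = 0.00662). Both kept their sign but missed the threshold under the pan-leukocyte scaling, at 1.38 for Fcgr1 (adjusted p = 0.0571) and -0.98 for Fcgr4 (adjusted p = 0.0829), where 1.72% of all genes passed. The others ranged from 0.67 for Fcgr2b (adjusted p = 0.0701) to -0.77 for Fcer1g (adjusted p = 0.0874), with -0.11 for Syk (adjusted p = 0.821). The Ly6C and Ly6G ranges were apart for 8 genes, 2 of them with Ly6C higher and 6 with Ly6C lower, a separation that 42.1% of all genes showed, 29% with Ly6C higher and 13% with Ly6C lower. The Syk ranges overlapped.

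Within the tumor, 7 of the 9 genes were lower in Ly6C than in Ly6G and none was higher, where 14.5% of all genes passed 5.8% as higher and 8.7% as lower. The difference was -1.70 ± 0.25 for Syk (limma adjusted p = 0.00260), -1.41 ± 0.23 for Fcgr3 (adjusted p = 0.00385) and -1.30 ± 0.22 for Fgr (adjusted p = 0.00430). It was -1.31 ± 0.28 for Tyrobp (adjusted p = 0.0134), -1.22 ± 0.32 for Fcer1g (adjusted p = 0.0285), -1.15 ± 0.25 for Fcgr4 (adjusted p = 0.0152) and -0.87 ± 0.18 for Lyn (adjusted p = 0.0132). Fcgr1 differed by 1.17 ± 0.44 (adjusted p = 0.0905) with overlapping ranges, and Fcgr2b by 0.03 (adjusted p = 0.967). The ranges were apart for the 7 genes, all with Ly6C lower, as for 18.2% of all genes. Of the 20 pan-leukocyte genes, 13 were also lower in Ly6C tumor, with a median of -0.998, and their part in these differences was not tested. Scaled to them, Syk stayed lower at -0.76 (adjusted p = 0.0222), Fcgr1 and Fcgr2b were higher at 2.35 and 1.05, Lyn turned to 0.16, and the remaining 5 kept a negative sign without passing. On that scale 69.6% of all genes passed as higher and 1.44% as lower. Without replicate 3 of Ly6G tumor 3 genes passed as lower, with Fcgr4, Fcer1g, Tyrobp and Lyn at adjusted p from 0.0505 to 0.104. Fcer1g was also lost without replicate 2 of Ly6C tumor (adjusted p = 0.0756) or of Ly6G tumor (adjusted p = 0.0787), Lyn without replicate 2 of Ly6C tumor (adjusted p = 0.0534) and Fcgr4 without replicate 2 of Ly6G tumor (adjusted p = 0.0538).

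The tissue effect differed between the labels for 3 of the 9 genes, where 21.8% of all genes passed this interaction, 6.02% with the higher and 15.8% with the lower value under Ly6C. The difference, the Ly6C effect minus the Ly6G effect, was -1.60 ± 0.36 for Syk (limma adjusted p = 0.00979), -1.13 ± 0.30 for Fgr (adjusted p = 0.0220) and -1.01 ± 0.32 for Fcgr3 (adjusted p = 0.0453). For Syk the spleen groups overlapped, while Ly6C tumor was below Ly6G tumor in every library. Without replicate 2 or without replicate 3 of Ly6G tumor 1 gene, Syk, passed, and under the pan-leukocyte scaling none did, with Syk at -0.75 (adjusted p = 0.155), while 9% of all genes did. With median-of-ratios factors only Syk passed, with Fgr at -0.90 (adjusted p = 0.0765) and Fcgr3 at -0.78 (adjusted p = 0.144), and the calls over all genes turned to 1696 with the higher and 1443 with the lower value under Ly6C, against 820 and 2152 on FPKM as deposited. Without the filter on low values Fgr (adjusted p = 0.0555) and Fcgr3 (adjusted p = 0.104) were lost too. The call of Fcgr3 was lost in 9 of the 12 fits that left out 1 library and with the replicate number as a block (adjusted p = 0.0551). The other 6 genes did not pass.

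Around the members, receptors that signal through the same adaptors and the proteins that act after SYK were read from lists of pathway genes. The counts between tissues below stand beside the shares of all genes given above. These were 46.2% higher and 30.5% lower under Ly6C, and 51.5% higher and 24.7% lower under Ly6G. Of 12 receptors listed as pairing with DAP12, 9 were tested. Of these, 7 were lower in Ly6C tumor than in Ly6C spleen and 6 in Ly6G tumor than in Ly6G spleen. None of them was higher, and the medians were -1.83 and -0.92. Trem3, a DAP12-coupled receptor of mouse myeloid cells, fell by 5.50 ± 0.33 under Ly6C (limma adjusted p = 3.07e-08), to 4.76 ± 2.24 FPKM in Ly6C tumor against 247 ± 48.5 FPKM in Ly6C spleen (SD, n = 3 each). Of 13 receptors listed as using the FcR gamma chain, 9 were in the matrix and 6 were tested, among them the cytokine receptor subunits Il3ra and Csf2rb. Of the 6 tested, 2 were higher and 3 lower under Ly6C, and 0 and 2 under Ly6G. Clec4d, a C-type lectin of that group, was higher in Ly6C tumor than in Ly6C spleen by 1.04 ± 0.33 (limma adjusted p = 0.0131). It had 28.2, 17.0 and 30.0 FPKM in Ly6C tumor and 9.63, 8.38 and 18.0 FPKM in Ly6C spleen, which overlapped. In Ly6G libraries Clec4d stood at 77.1 ± 24.9 FPKM in tumor and 97.3 ± 27.0 FPKM in spleen.

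Downstream of SYK, 34 relay genes (PI3K, PLC gamma, TEC kinases, VAV and RAC proteins and others) were tested, and 30 were lower and 2 higher in Ly6C tumor than in Ly6C spleen, with a median of -1.69. In Ly6G tumor 25 were lower and 3 higher than in Ly6G spleen, with a median of -1.36. Rac2, the RAC protein of blood cells, fell by 4.96 ± 0.39 under Ly6C (limma adjusted p = 2.98e-07) and fell by 3.59 ± 0.39 under Ly6G (adjusted p = 5.19e-06). Plcg1, the PLC gamma isoform found in many tissues, was higher in tumor by 2.22 ± 0.16 under Ly6C (adjusted p = 1.21e-07) and by 1.98 ± 0.16 under Ly6G (adjusted p = 3.62e-07). Among 7 other Src-family kinases, 3 were higher and 3 lower under each label. Of all genes, 46.2% were higher and 30.5% lower under Ly6C, and 51.5% and 24.7% under Ly6G. Src, which is widely expressed, stood at 12.4 ± 3.56 FPKM in Ly6C tumor against 0.122 ± 0.0375 FPKM in Ly6C spleen (SD, n = 3 each). The log2 difference of Src was 3.54 ± 0.18 under Ly6C (limma adjusted p = 6.55e-09) and 3.62 ± 0.18 under Ly6G (adjusted p = 6.33e-09).

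All 17 tested receptors of the ITIM list, the inhibitory counterparts of Fcgr2b, were lower in tumor under both labels, with medians of -3.03 under Ly6C and -2.44 under Ly6G. Of all genes, 30.5% were lower and 46.2% higher under Ly6C, and 24.7% and 51.5% under Ly6G. Ceacam1, an ITIM receptor, fell by 5.66 ± 0.27 under Ly6C (limma adjusted p = 4.94e-09), and Clec4a2, encoding a DCIR, fell by 4.39 ± 0.22 under Ly6G (adjusted p = 8.56e-09). Of 16 brakes on ITAM signaling, phosphatases, ubiquitin ligases and DOK adaptors among them, 13 were lower and 3 higher under Ly6C and 11 and 3 under Ly6G. Dok3, an adaptor that restrains SYK signaling, fell by 4.55 ± 0.24 under Ly6C (adjusted p = 1.00e-08), and Dok1 was higher by 2.26 ± 0.26 (adjusted p = 6.76e-06). Of 21 genes of the phagocytosis machinery, 17 were lower and 3 higher under Ly6C and 14 and 3 under Ly6G. Myo1f, a myosin of phagocytes, fell by 5.01 ± 0.28 under Ly6C (limma adjusted p = 1.73e-08), and Bin1, a membrane-bending protein, was higher by 2.61 ± 0.24 (adjusted p = 1.01e-06). Scaled to the pan-leukocyte genes, the medians turned positive for the relay list (1.14 under Ly6C and 1.19 under Ly6G), the DAP12-coupled list (1.46 and 1.25), the brakes (1.24 and 1.38) and the phagocytosis list (1.64 and 0.85). Those of the FcR gamma list (1.83 and 2.39) and of the other Src-family kinases (2.75 and 2.03) were positive too, and those of the ITIM list came to 0.19 and -0.02. All of these except that of the FcR gamma list under Ly6G lie below the medians of all genes on that scale, 3.12 and 2.28.

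**Figure D5:**
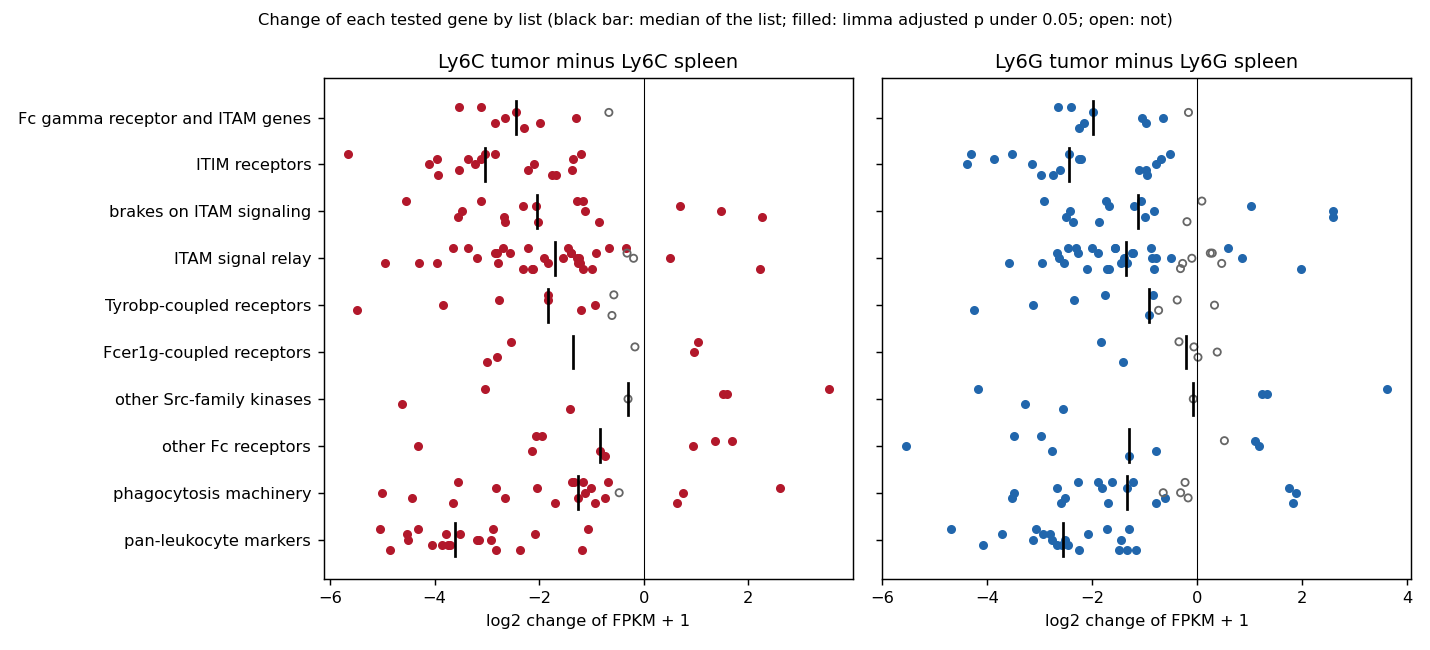
Log2 change of FPKM + 1, tumor minus spleen, of each tested gene of the 9 members, 8 pathway lists and the pan-leukocyte genes in Ly6C (left) and Ly6G (right) libraries, with filled points for limma adjusted p under 0.05 and a black bar at each list's median. The ITIM receptors lie below 0 throughout, with medians of -3.03 and -2.44, and the members' medians are -2.44 and -1.99.

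The remaining lists were smaller or rested on lymphoid genes. Of 14 other Fc receptors, 9 were tested, with 3 higher and 6 lower under Ly6C and 2 and 6 under Ly6G. Over all genes 46.2% were higher and 30.5% lower under Ly6C, and 51.5% and 24.7% under Ly6G. Fcgrt, the neonatal Fc receptor of many tissues, was higher in Ly6C tumor than in Ly6C spleen by 1.69 ± 0.35 (limma adjusted p = 0.000858), and Fcmr, the IgM receptor of B cells, fell by 4.32 ± 0.23 (adjusted p = 1.25e-08). The median of these Fc receptors stayed negative under the pan-leukocyte scaling, at -0.30 under Ly6C and -0.53 under Ly6G. All 6 tested genes among the other adaptors and the SYK relative Zap70 were lower in tumor under both labels. Under the pan-leukocyte scaling, 2 under Ly6C and 5 under Ly6G still passed as lower. Cd79b, a subunit of the B cell receptor, fell by 6.49 ± 0.25 under Ly6G (adjusted p = 8.56e-10), to 0.0991 ± 0.0484 FPKM in Ly6G tumor against 103 ± 43.6 FPKM in Ly6G spleen (SD, n = 3 each). Of the 2 hemITAM receptors tested, 1 was lower under each label, Clec1b, with -0.89 ± 0.11 under Ly6C (adjusted p = 1.03e-05) and -1.45 ± 0.11 under Ly6G (adjusted p = 1.80e-07).

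Between the labels, 22.1% of all genes were higher and 8.59% lower in Ly6C spleen, and 5.8% higher and 8.7% lower in Ly6C tumor, as given above. In the spleen the relay list of 34 held 7 genes higher and 5 lower in Ly6C than in Ly6G, and of the 16 brakes 4 were higher and none lower, shares of higher genes near that of all genes, while no gene of either list passed under the pan-leukocyte scaling. Sirpb1b, a DAP12-coupled receptor, fell by 1.82 ± 0.31 (limma adjusted p = 0.00132) in Ly6C spleen relative to Ly6G spleen, and Trem2 was higher by 1.64 ± 0.29 (adjusted p = 0.00179). In the tumor the calls were lower in Ly6C than in Ly6G, with 16 of 34 relay genes, 8 of 17 ITIM receptors, 5 of 9 DAP12-coupled receptors and 4 of 6 FcR gamma-coupled receptors lower and none of these higher. Scaled to the pan-leukocyte genes, 11 of the 34 relay genes were higher and 2 lower, where 69.6% of all genes passed as higher and 1.44% as lower. The ITIM, DAP12-coupled and FcR gamma lists kept negative medians of -0.30, -0.17 and -0.39 on that scale, beside 1.02 over all genes. Themis2, an adaptor of B cells and macrophages, fell by 1.91 ± 0.24 in Ly6C tumor relative to Ly6G tumor (limma adjusted p = 0.00112), Cd300lf, an ITIM receptor, fell by 2.07 ± 0.22 (adjusted p = 0.000871), and Trem1 fell by 1.68 ± 0.27 (adjusted p = 0.00379). The interaction passed with the lower value under Ly6C for 18 of the 34 relay genes and 8 of the 16 brakes, and with the higher one for 3 and 0. Of all genes, 15.8% passed it as lower and 6.02% as higher. Under the pan-leukocyte scaling it passed for 1 and 0 as lower and 3 and 0 as higher, where 38 of all 13610 genes passed as lower and 1187 as higher. Csf2rb, the beta chain of the GM-CSF receptor, had the largest such difference among receptors of the FcR gamma list, -2.82 ± 0.61 (adjusted p = 0.00855). It stood at 4.24, 1.79 and 3.81 FPKM in Ly6C tumor and 21.5, 22.4 and 45.0 FPKM in Ly6C spleen, and at 14.9, 4.29 and 15.3 FPKM in Ly6G tumor and 12.6, 10.4 and 7.56 FPKM in Ly6G spleen.

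Across the 12 libraries, which share 4 groups and their tissue contrast, 7 of the members had closely parallel levels, with Pearson's r on log2(FPKM + 1) of at least 0.92 between any 2 of Fcgr3, Fcgr4, Fcer1g, Tyrobp, Syk, Fgr and Lyn. Fcgr2b had r of 0.58 to 0.74 with them and 0.66 with Fcgr1, and Fcgr1 had r of -0.14 to 0.08. The genes most like Fcgr1 were Ms4a4a (r = 0.951), Ms4a6d (0.950) and Ass1 (0.946), and those most like Fcgr2b were Gvin1 (0.957), Ctsc (0.956) and Hps5 (0.948). Fcgr3 was most like Cd53 (0.989), with Slc2a3 (0.986) also among its 3 nearest genes, and Fcgr4 most like Mrgpra2b (0.992), Slfn1 (0.990) and Stk17b (0.989). Fcer1g and Tyrobp both had Gmfg first (0.996 and 0.994) and Lsp1 among their 3 nearest genes (0.994 and 0.992). Syk was most like Stat3 (0.991), Fgr most like Ripor2 (0.998) and Lyn most like Lsp1 (0.995). The share of all gene pairs that reach an r of 0.92 was not computed, so such values cannot be called particular to the members.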

How the data were processed

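Per the labels' protocols, column-purified total RNA went into paired-end Illumina libraries. HISAT2 2.0.5, featureCounts 1.5.0-p3 and the build GRCm38 are named in the submitters' processing notes. The deposited values are FPKM, computed by the authors per gene and library. Which tool and annotation release gave them is not given in the sources used here. Fragment counts were not used, so no counting error is given. FPKM are relative to all fragments of a library, so a change in a few abundant genes moves all others.

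Of 54674 entries, 570 assembled loci without a gene name were left out, and 66 Ensembl identifiers had no symbol in GENCODE M21. The filter asked for 1 FPKM or more in any 3 of the 12 libraries, and the 13610 genes that passed were tested on log2(FPKM + 1), which understates changes of low genes. The 4 group means entered one linear model in limma 3.58.1 under R 4.3.3 (lmFit, contrasts.fit, eBayes with trend, 8 residual degrees of freedom), two-sided, with a threshold of 0.05 on the Benjamini-Hochberg adjusted p over all genes tested in each of 5 comparisons. Ratios were tested by exact permutation in Python 3.11.15 with numpy 2.4.6. Both were tested on simulated data. The members, lists and rules were chosen with earlier results of these data known. Named were the 9 members throughout, the passing gene of largest rise or fall of a pathway list, and the 3 genes of highest Pearson r with a member. The lists are given as counts and medians, with no test of a list. Some genes that this rule names are not reported here. Alternatives covered the pseudocount, the filter, the scaling between libraries, the groups fitted, a replicate block and each library left out.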

Additional observations from a re-analysis of the deposited data

Results flagged for a closer look

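The interaction test of limma, with Benjamini-Hochberg adjustment over all genes tested, marked 3 members whose tumor change differed between the labels, against 21.8% of all genes. The Ly6C change minus the Ly6G change was -1.60 for Syk (adjusted p = 0.00979), from -2.65 under Ly6C and -1.05 under Ly6G. It was -1.13 for Fgr (adjusted p = 0.0220), from -3.53 under Ly6C and -2.40 under Ly6G. It was -1.01 for Fcgr3 (adjusted p = 0.0453), from -1.98 under Ly6C and -0.97 under Ly6G. The pan-leukocyte genes had a median of -0.87 in the same comparison, with 7 of 20 passing as lower. Their part in these differences was not tested. Scaled to them, the differences were -0.75 for Syk, -0.23 for Fgr and -0.08 for Fcgr3, and none passed. With 1 of the 12 libraries left out at a time, Fcgr3 missed the threshold in 9 of 12 cases, Fgr in 2 and Syk in 0. Groups of 3 libraries are too small for a test of single outlying libraries.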

How the results depend on the processing

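Over the alternatives tried, 940 values of single members kept their side of the threshold, 52 lost and 15 gained a call, and 19 reversed, all under the pan-leukocyte scaling. A change of sign counted as reversed only where a fit passed. Changes of sign without a call are among the 940, such as Fcgr2b in Ly6C tumor over Ly6G tumor. With single libraries left out, that difference ran from -0.19 to 0.25. Reversals under the pan-leukocyte scaling follow. Under Ly6C it gave tumor over spleen changes of 2.69 for Fcgr1, 2.07 for Fcgr2b, 1.65 for Fcgr3, 1.21 for Fcgr4, 0.59 for Fcer1g, 0.87 for Tyrobp, 0.84 for Syk, 0.069 for Fgr and 1.15 for Lyn. Under Ly6G these were 1.73, 1.68, 1.73, 0.41, 0.076, 0.59, 1.59, 0.29 and 0.69 in the same order, and Lyn in Ly6C tumor over Ly6G tumor turned to 0.16. By construction this scaling sets the pan-leukocyte genes level, and it gave 7 members higher and 0 lower under Ly6C, 5 and 0 under Ly6G, 0 and 0 between labels in spleen, 2 and 1 in tumor, and 0 lower in the interaction. For all other moved counts the cause was not tested. In spleen, 2 members were higher in Ly6C with a pseudocount of 5, with equal sums (TPM scale) and without both libraries of highest mitochondrial share (replicate 3 of Ly6C tumor and of Ly6G tumor), and 4 were lower with median-of-ratios factors and 2 with only the spleen groups fitted. In tumor, 4 were lower with only the tumor groups fitted and 3 without both mitochondrial libraries. In the interaction, 1 was lower without the filter, with median-of-ratios factors or without both mitochondrial libraries, and 6 with equal sums. Leaving out 1 library at a time gave 1 to 3 members lower in Ly6C spleen (3 without replicate 2 of Ly6C tumor), 3 to 7 lower (3 without replicate 3 of Ly6G tumor) and 0 to 1 higher in Ly6C tumor (1, Fcgr1, without replicate 2 of Ly6C spleen), and 1 to 3 lower in the interaction (1 without replicate 2 or 3 of Ly6G tumor). The Fcgr3 to Fcgr2b difference between tissues ran from -0.57 to -0.29, with exact permutation adjusted p from 0.032 to 0.313. The split of all genes called, higher and lower, also moved with scaling: 3002 and 1169 between labels in spleen became 1775 and 2367 with median-of-ratios factors and 5380 and 567 with equal sums, 790 and 1184 in tumor became 108 and 1435 with equal sums, and 820 and 2152 in the interaction became 1696 and 1443 with median-of-ratios factors and 275 and 4517 with equal sums.

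The labels tie no replicate number to an animal, so whether the numbers pair the libraries is not known. Same-numbered libraries had correlations of their deviations from group means of -0.36 to 0.28. Differently numbered libraries were not set beside them, so these values cannot decide it. With the replicate block the limma call of Fcgr2b in Ly6G tumor over Ly6G spleen was lost (adjusted p = 0.0547), as was that of Fcgr3 in the interaction (adjusted p = 0.0551), and no other call of a member changed. For the ratios, sign flips within pairs cannot go below an exact p of 0.03125 (adjusted 0.0625), so no ratio could pass: the differences were -1.31 for Fcgr3 to Fcgr2b between labels, and 0.40 for Tyrobp to Fcer1g, -0.76 for Fgr to Lyn and -0.88 for Fcgr4 to Fcgr3 between tissues. Without counts, depth limits cannot be computed for genes of low FPKM.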

Other observations

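Natural killer cells also carry Fcgr3, Fcer1g and Tyrobp. Marker genes of these cells summed to 0.559 to 0.694 FPKM in Ly6C tumor and 0.535 to 1.34 FPKM in Ly6C spleen, and to 0.571 to 0.830 FPKM in Ly6G tumor and 1.15 to 4.38 FPKM in Ly6G spleen, beside at least 12.04 FPKM of Fcgr3 in every library. Ncr1, Klrb1c, Klra8 and Klre1 were at 0 in all Ly6C tumor libraries. Monocyte markers summed to 354 to 617 FPKM in Ly6C tumor and 2143 to 2921 FPKM in Ly6C spleen, and to 1157 to 1755 FPKM in Ly6G tumor and 1630 to 2601 FPKM in Ly6G spleen. The tumor sums rest mostly on Cd14, which stood at 455 ± 130 FPKM in Ly6C tumor and 174 ± 31.2 FPKM in Ly6C spleen, and at 1424 ± 302 FPKM in Ly6G tumor and 316 ± 38.6 FPKM in Ly6G spleen (SD, n = 3 each). Between Ly6C tumor and Ly6G tumor Cd14 differed by -1.66 (limma adjusted p = 0.00237), while the other 9 markers ran from -0.25 to 1.65, and Ms4a4c, at 1.65, passed as higher in Ly6C tumor (adjusted p = 0.0278). Neutrophil markers summed to 1436 to 2678 FPKM in Ly6C tumor and 67937 to 106393 FPKM in Ly6C spleen, and to 4395 to 8709 FPKM in Ly6G tumor and 129877 to 165873 FPKM in Ly6G spleen. The part of each cell type in the members' values was not tested.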
